A study of Mus musculus with 18 samples.

Results

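Of the genes measured in wt1-SAM brown adipocytes after transfection with antisense oligonucleotides against the long non-coding RNA Gm15551, 8 are described here: Calr3, Chil1, Kif5c, Kif16b, Dync2i1, Rab39b, Dennd2d and Dmkn. They were chosen because their mean level, averaged over unstimulated and stimulated cells, was shifted in the same direction by both targeting oligonucleotides. In that averaged comparison 66 of the 14949 genes tested (0.442%) were called with LNA1 and 213 (1.42%) with LNA2, and 20 (0.134%) moved past both limits in the same direction with either LNA. Over the 18 fits that left out 1 library these counts were 32 to 82, 113 to 262 and 10 to 22, with the lowest LNA1 count without unstimulated ctrlA replicate 3 or unstimulated LNA1 replicate 4 and the lowest LNA2 count without unstimulated LNA2 replicate 4. A call required an adjusted p below 0.05 in edgeR and an absolute log2 fold change above 0.5. The 8 genes are named members of these 20, and their differences between LNA and ctrlA are therefore given as a description, with no test. The table listed 54347 genes in all, and the 8 genes all passed the filter on low counts.

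wt1-SAM is an immortalised mouse brown preadipocyte line that stably carries the CRISPR activation machinery named SAM, and every group shares this background. The cells were differentiated into adipocytes and reverse transfected on day 4 with a locked nucleic acid gapmer (LNA), a short modified antisense oligonucleotide that directs the cleavage of the RNA it pairs with. The groups were the non-targeting ctrlA and the Gm15551-directed LNA1 and LNA2, each left unstimulated or given 1 µM isoproterenol, a β-adrenergic agonist, for 24 h before harvest on day 7. Each well held 500000 cells and 1.4 µl of LNA at 10 µM. There were 3 libraries, labelled as polyA RNA, in each of the 6 groups, with the replicate numbers 2, 3 and 4, and nothing in the labels says whether these were separate cultures, so that errors and p-values measure the spread between libraries, which may be technical. In bulk RNA of this kind, fewer cells of a type and less RNA per cell cannot be told apart.

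The 8 genes belong to different parts of the cell. Kif5c and Kif16b encode kinesins, motors that walk along microtubules towards their plus ends. Kif5c is a heavy chain of kinesin-1, best known from neurons, and Kif16b carries early endosomes. Dync2i1 is an intermediate chain of dynein-2, the motor that returns material from the tip of the primary cilium. Rab39b is a small GTPase of vesicle traffic and Dennd2d carries a DENN domain, the module that activates Rab GTPases. Calr3 is a calreticulin-like chaperone of the endoplasmic reticulum that is known mainly from testis. Chil1 is a secreted chitinase-like protein that binds chitin without cutting it, and Dmkn (dermokine) is a secreted protein of the epidermis.

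The oligonucleotides act through base pairing, and their sequences are shown first, as listed by the study, written 5′ to 3′.
ctrlA: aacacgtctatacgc
LNA1: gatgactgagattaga
LNA2: aagtagcacggcgttg
Both targeting LNAs paired over all 16 of their bases with Gm15551, which the GENCODE M21 annotation of GRCm38 gives as an antisense gene on the minus strand of chromosome 3 (126667329 to 126669044). The sites lie in exons of its 535-base transcript, that of LNA1 at chr3:126667502-126667517 and that of LNA2 at chr3:126667608-126667623, with the paired bases in capitals.
LNA1 site in Gm15551: TCTAATCTCAGTCATC
LNA2 site in Gm15551: CAACGCCGTGCTACTT

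The spliced transcripts of the 8 genes were searched for the longest uninterrupted stretch that pairs with each oligonucleotide. For LNA1 the longest stretches had 9 bases, in Calr3, Kif5c and Kif16b. They had 8 bases in Chil1, Dync2i1, Dennd2d and Dmkn and 7 in Rab39b. For LNA2 they had 8 bases in Chil1, Kif5c and Dync2i1, 7 in Kif16b and Dennd2d, 6 in Rab39b and Dmkn and 5 in Calr3. Stretches of 9 or more bases were found for LNA1 in 12.4% of 14936 tested genes with transcripts and for LNA2 in 4.2%, and stretches of 10 or more in 3.13% and 0.643%. None of the 8 genes held 10 paired bases with either targeting LNA. The 3 longest LNA1 stretches and the 3 longest LNA2 stretches are shown on the transcript strand, with the paired bases in capitals.
Calr3 with LNA1: ttTAATCTCAGgactt
Kif5c with LNA1: cCTAATCTCAcattgt
Kif16b with LNA1: gCTAATCTCAtattta
Chil1 with LNA2: agctggtcTGCTACTT
Kif5c with LNA2: aggcttCGTGCTACcg
Dync2i1 with LNA2: gagccagtTGCTACTT
The LNA1 stretches of Calr3 (chr8:72424405-72424413, minus strand) and Kif5c (chr2:49773449-49773457, plus strand) lie in 3′ untranslated regions, and that of Kif16b (chr2:142699236-142699244, minus strand) lies in coding sequence that 2 of its 5 annotated transcripts hold. The LNA2 stretches of Chil1 (chr1:134183517-134183524, plus strand), Kif5c (chr2:49757396-49757403, plus strand) and Dync2i1 (chr12:116218832-116218839, minus strand) are coding. Introns were not searched, and a stretch of paired bases is a description of the sequence.

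**Figure D1:**
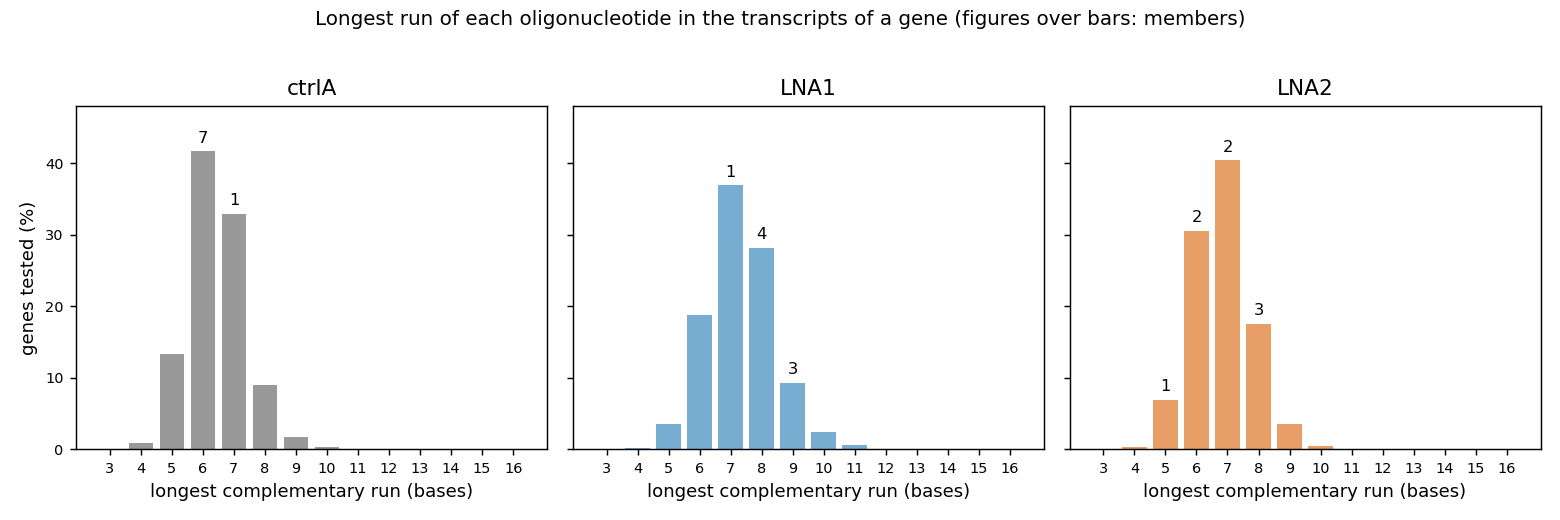
Length in bases of the longest uninterrupted stretch that pairs with ctrlA, LNA1 or LNA2 in the spliced transcripts of each tested gene (bars, percent of 14936 genes), with the number of the 8 genes written over the bars. The 8 genes lie at 6 or 7 bases for ctrlA, 7 to 9 for LNA1 and 5 to 8 for LNA2.

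Library totals ranged from 9167560 to 19723021 counts, so that 3 counts, taken as the floor of detection, corresponded to 0.17 to 0.306 CPM, the counts scaled to library size after TMM normalisation. The 6 libraries with replicate number 2 stood apart, with 7.86% to 9.79% of their counts from mitochondrial genes against 2.56% to 4.97% in the others, and 2.88% to 14.3% from the ribosomal RNA gene Rn45s against 0.285% to 1.04%. Adipocyte markers were abundant in all libraries (8 of 8 tested, summed level 15100 to 29100 CPM), and Ucp1, the uncoupling protein of brown fat, rose with isoproterenol from 1.12 to 12.9 CPM (log2 fold change 3.51, adjusted p 1.12e-08 in edgeR), as did Cidea (1.27, adjusted p 0.0011) and Ppargc1a (0.56, adjusted p 0.00147), while Adipoq fell by 0.71 (adjusted p 0.0073). The targeted transcript itself had 1 to 14 counts per library and did not pass the filter. The mean of Gm15551 was 0.493 ± 0.267 CPM in the ctrlA arm (SD, n = 6), against 0.341 ± 0.347 in the LNA1 arm and 0.368 ± 0.373 in the LNA2 arm. The ranges of the groups overlapped, so the knockdown could not be checked in these libraries at this depth. The study itself reports a robust decrease of Gm15551 with both LNAs.

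The motor genes are described first. Kif5c (ENSMUSG00000026764.15, chromosome 2, 49619298 to 49774778, plus strand) was low with ctrlA and higher with both LNAs. In unstimulated cells its level in replicates 2, 3 and 4 was 0.511, 1.08 and 0.734 CPM for ctrlA, 1.95, 2.75 and 3.05 for LNA1 and 2.64, 3.97 and 6.09 for LNA2. With isoproterenol it was 1.75, 1.87 and 1.23 CPM for ctrlA, 3.64, 3.35 and 3.5 for LNA1 and 4.65, 4.87 and 4.92 for LNA2. Every LNA library lay above every ctrlA library of the same state, and unstimulated LNA2 was the most spread group. The log2 fold change was 1.73 (SE 0.33) with LNA1 and 2.45 (SE 0.33) with LNA2 in unstimulated cells, and 1.10 (SE 0.31) and 1.56 (SE 0.31) in stimulated cells. The unstimulated ctrlA values rest on 9 to 15 counts per library.

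Kif16b (ENSMUSG00000038844.10, chromosome 2, 142617474 to 142901531, minus strand) was the only one of the 8 genes that was lower with both LNAs, and also the gene with the least spread between replicates. Its level in unstimulated cells was 39.7, 45.2 and 44.3 CPM for ctrlA, 30.1, 31.6 and 31.1 for LNA1 and 26.8, 28.7 and 24.4 for LNA2. In stimulated cells it was 40.3, 46.4 and 46.9 CPM for ctrlA, 29.1, 31.2 and 28.9 for LNA1 and 26.8, 24.5 and 25.9 for LNA2. The 3 arms formed separate bands in both states, with ctrlA highest and LNA2 lowest. Relative to ctrlA the level was 0.719-fold with LNA1 and 0.619-fold with LNA2 in unstimulated cells, and 0.668-fold and 0.578-fold in stimulated cells. On the log2 scale these were -0.48, -0.69, -0.58 and -0.79 (SE 0.11 each).

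Dync2i1 (ENSMUSG00000042050.8, named Wdr60 in the annotation, chromosome 12, 116206262 to 116263022, minus strand) shifted by a similar amount with each LNA. Unstimulated cells had 22.7, 16.6 and 17.9 CPM for ctrlA, 30.6, 29.8 and 33.0 for LNA1 and 27.3, 27.5 and 31.0 for LNA2. Stimulated cells had 26.8, 22.9 and 19.5 CPM for ctrlA, 40.5, 38.6 and 38.7 for LNA1 and 37.2, 35.1 and 39.3 for LNA2. In both states the ctrlA libraries lay below all LNA libraries, and the ranges of LNA1 and LNA2 overlapped. The ratio to ctrlA was 1.63 with LNA1 and 1.5 with LNA2 in unstimulated cells and 1.70 and 1.61 in stimulated cells, with log2 values of 0.71, 0.58, 0.76 and 0.69 (SE 0.14 each).

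Among the genes of vesicle traffic, Rab39b (ENSMUSG00000031202.5, chromosome X, 75572046 to 75578231, minus strand) showed the larger shift. Unstimulated cells had 3.40, 2.81 and 1.39 CPM for ctrlA, 9.76, 6.03 and 6.41 for LNA1 and 9.99, 11.8 and 14.4 for LNA2. Stimulated cells had 4.79, 2.77 and 3.27 CPM for ctrlA, 10.4, 7.57 and 8.50 for LNA1 and 13.4, 7.23 and 12.1 for LNA2. LNA1 and LNA2 were separate in unstimulated cells and overlapped in stimulated cells, where LNA2 replicate 3 was the lowest LNA library. The log2 fold change against ctrlA was 1.53 (SE 0.33) and 2.24 (SE 0.34) for LNA1 and LNA2 without isoproterenol and 1.29 and 1.59 (SE 0.33 each) with it. Exons of Rab39b overlap Gm15063 on the opposite strand, which held 0 to 7 counts per library.

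Dennd2d (ENSMUSG00000027901.12, chromosome 3, 106482405 to 106503030, plus strand) was higher with both LNAs and lower in stimulated than in unstimulated cells of each arm. In unstimulated cells it had 8.06, 9.16 and 9.14 CPM for ctrlA, 12.8, 14.5 and 13.2 for LNA1 and 14.1, 18.6 and 16.6 for LNA2. With isoproterenol it had 5.09, 5.28 and 5.92 CPM for ctrlA, 8.70, 8.07 and 8.58 for LNA1 and 11.3, 13.9 and 9.53 for LNA2. Stimulated LNA1 cells thus had about the level of unstimulated ctrlA cells. The log2 fold change was 0.62 with LNA1 and 0.90 with LNA2 in unstimulated cells and 0.64 and 1.09 in stimulated cells (SE 0.16 each). Exons of Dennd2d overlap 2010016I18Rik and Cept1 on the opposite strand, and since it is not stated whether the counting used strand, reads from the overlap cannot be told apart. In the averaged comparison Cept1 had log2 fold changes of -0.06 and -0.14 with LNA1 and LNA2 (adjusted p 1 and 0.954 in edgeR). For 2010016I18Rik, at 0.976 to 6.93 CPM, they were 0.91 and 1.29 (adjusted p 0.445 and 0.0577).

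Calr3 (ENSMUSG00000019732.14, chromosome 8, 72424176 to 72443870, minus strand) separated all 3 arms. Its level in unstimulated cells was 5.96, 4.11 and 5.14 CPM for ctrlA, 12.6, 11.3 and 12.8 for LNA1 and 17.4, 17.6 and 22 for LNA2. Stimulated cells had 9.04, 6.43 and 5.21 CPM for ctrlA, 13.4, 12.8 and 12.2 for LNA1 and 21.8, 26.2 and 19.1 for LNA2. The ratio to ctrlA was 2.42 with LNA1 and 3.75 with LNA2 without isoproterenol, and 1.86 and 3.25 with it. On the log2 scale the values were 1.27, 1.90, 0.89 and 1.69 (SE 0.20 each).

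Of the secreted proteins, Chil1 (ENSMUSG00000064246.10, chromosome 1, 134182176 to 134190181, plus strand) had 5 to 18 counts in the ctrlA libraries. Its level in unstimulated cells was 1.02, 0.433 and 0.897 CPM for ctrlA, 3.14, 2.75 and 4.27 for LNA1 and 1.98, 2.76 and 2.59 for LNA2. With isoproterenol it was 0.836, 0.579 and 0.51 CPM for ctrlA, 1.69, 1.53 and 1.59 for LNA1 and 2.47, 5.11 and 2.38 for LNA2. The higher arm was thus LNA1 in unstimulated cells, with ranges that overlapped at one end, and LNA2 in stimulated cells. Against ctrlA the log2 fold change was 2.09 and 1.62 (SE 0.36 each) for LNA1 and LNA2 in unstimulated cells, and 1.29 (SE 0.38) and 2.35 (SE 0.37) in stimulated cells.

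Dmkn (ENSMUSG00000060962.12, chromosome 7, 30763756 to 30781063, plus strand) was the most variable of the 8 between replicates, with a standard deviation within groups of 0.49 on the log2 scale against 0.09 for Kif16b. It had 3.23, 1.73 and 2.45 CPM in unstimulated ctrlA cells, 5.43, 6.48 and 11.1 CPM with LNA1 and 6.20, 6.24 and 8.54 CPM with LNA2. With isoproterenol the values were 2.96, 0.836 and 1.84 CPM for ctrlA, 5.24, 4.73 and 6.51 for LNA1 and 4.46, 7.23 and 7.23 for LNA2. The LNA arms overlapped each other and lay above ctrlA in both states. Fitted log2 fold changes were 1.62 and 1.49 (SE 0.39 each) for LNA1 and LNA2 in unstimulated cells and 1.55 and 1.76 (SE 0.40 each) in stimulated cells.

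**Figure D2:**
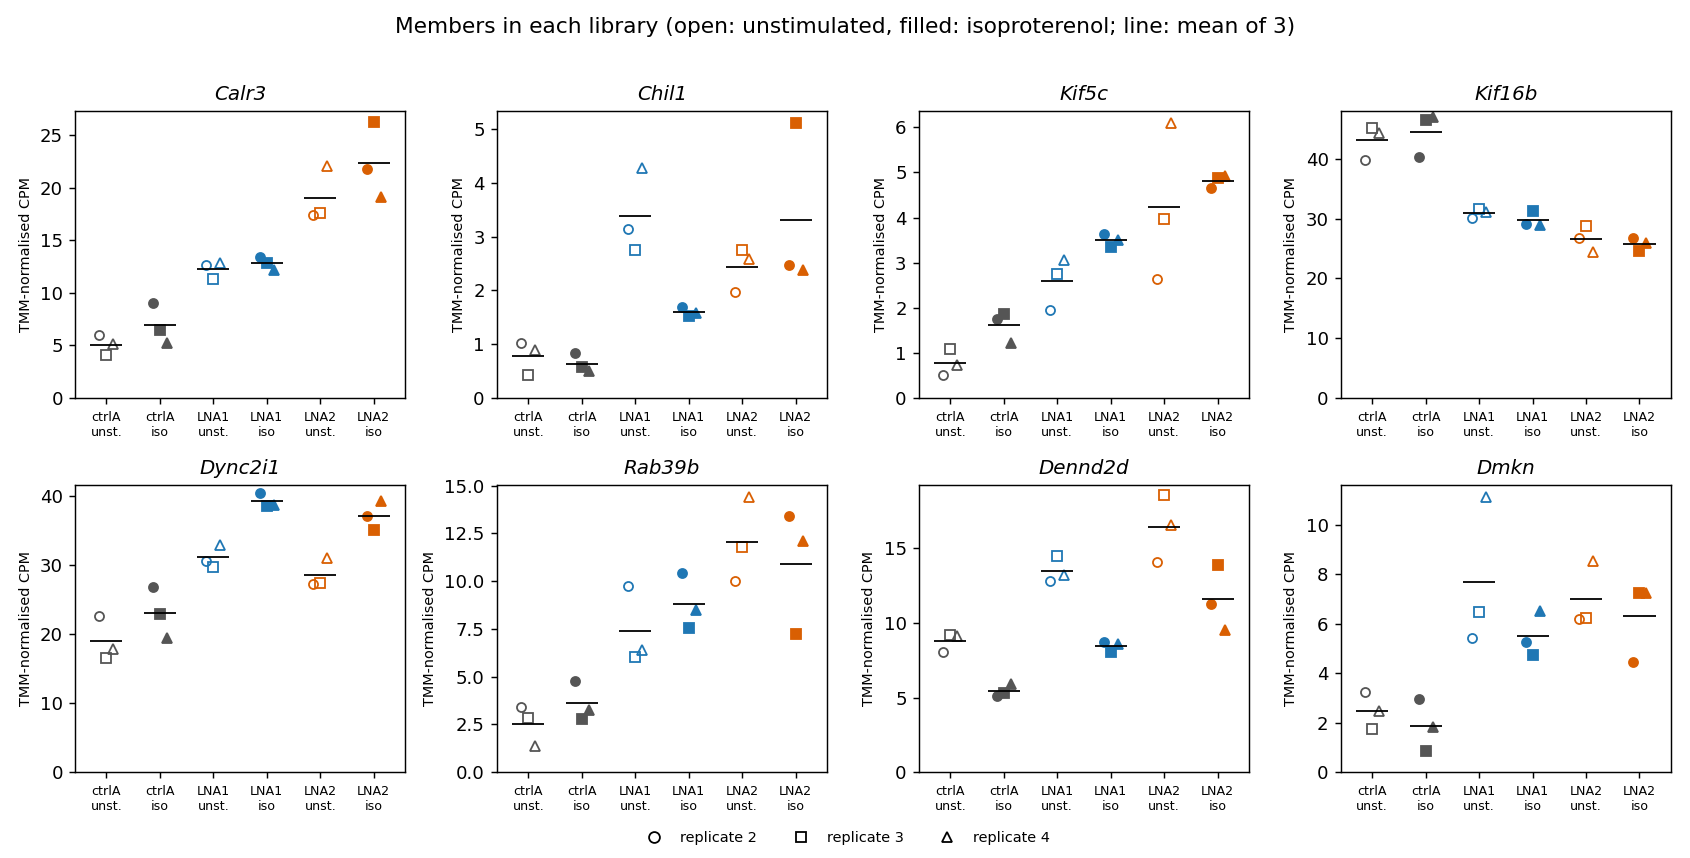
TMM-normalised CPM of the 8 genes in each of the 18 libraries, by LNA (ctrlA, LNA1, LNA2) and stimulation (open symbols unstimulated, filled symbols isoproterenol), with replicate numbers as symbol shapes and the mean of 3 libraries as a line. The LNA libraries lie above the ctrlA libraries of the same state for 7 genes and below them for Kif16b.

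The 3 LNA libraries and the 3 ctrlA libraries did not overlap in any of the 32 combinations of gene and comparison, a separation that 6.79% of all genes showed for LNA1 and 8.75% for LNA2 in unstimulated cells, and 7.53% and 8.99% in stimulated cells. Such a separation in 1 direction in all 4 within-state comparisons was seen for 80 of the 14949 genes tested (0.535%), of which 53 were higher with the LNAs (0.355%) and 27 lower (0.181%). As the 8 genes were chosen on these same libraries, and the unstimulated and stimulated ctrlA libraries serve for both LNAs, this count is a description of the choice. Averaged over both states, LNA1 and LNA2 gave log2 fold changes of 1.42 and 2.01 for Kif5c, -0.53 and -0.74 for Kif16b, 0.73 and 0.64 for Dync2i1, 1.41 and 1.91 for Rab39b, 0.63 and 1.00 for Dennd2d, 1.08 and 1.80 for Calr3, 1.69 and 1.98 for Chil1 and 1.59 and 1.62 for Dmkn. Their median was 1.24 with LNA1 and 1.71 with LNA2, where the median of all genes was -0.02 in both.

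**Figure D3:**
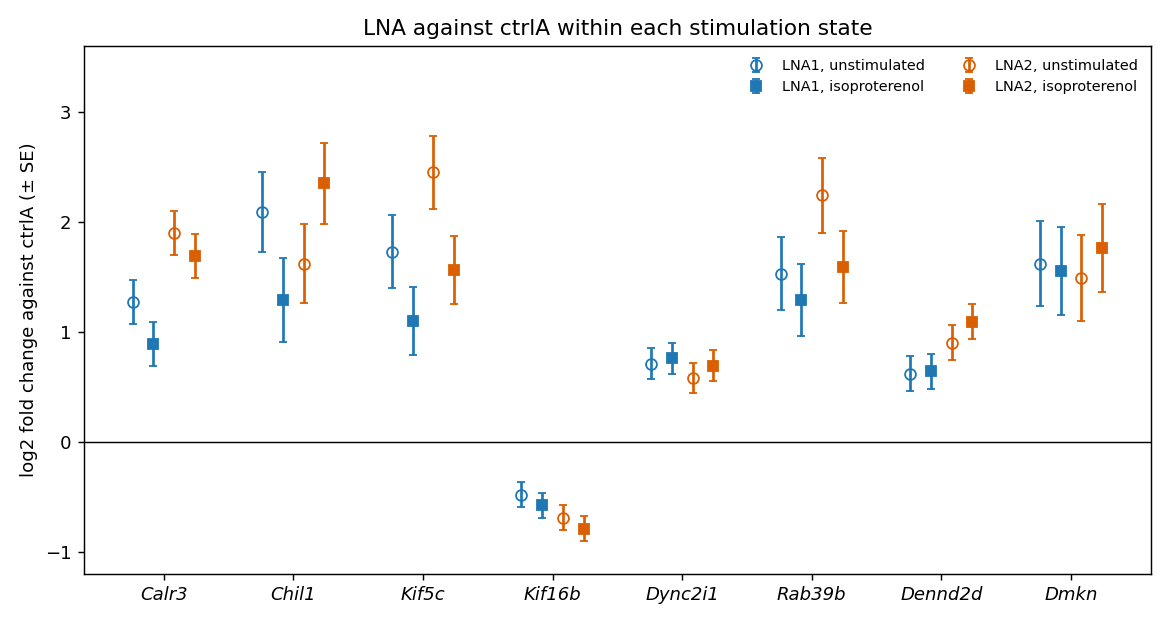
Log2 fold change of LNA1 (blue) and LNA2 (orange) against ctrlA in unstimulated (open circles) and isoproterenol-treated cells (filled squares) for the 8 genes, with the standard error of the fitted model as bars. Values run from -0.79 for Kif16b to 2.45 for Kif5c, and the bars are shortest for Kif16b and longest for Dmkn.

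The difference between LNA2 and LNA1, averaged over both states, was 0.72 (SE 0.14) for Calr3, 0.59 (SE 0.21) for Kif5c, 0.51 (SE 0.22) for Rab39b, 0.37 (SE 0.11) for Dennd2d and -0.21 (SE 0.08) for Kif16b on the log2 scale. For these 5 genes LNA2 was thus further from ctrlA than LNA1 was. For Chil1, Dync2i1 and Dmkn the difference was 0.29 (SE 0.24), -0.10 (SE 0.10) and 0.04 (SE 0.26). These differences are built from the comparisons that chose the genes, and no test of them is given.

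Levels of different genes were compared per kilobase of merged exon. With ctrlA the order was Kif16b (4.83 CPM per kilobase), Calr3 (3.05), Dync2i1 (2.60), Dennd2d (1.03), Dmkn (0.992), Rab39b (0.903), Chil1 (0.254) and Kif5c (0.167). With LNA2 Calr3 came first at 10.5 CPM per kilobase, Dync2i1 followed at 4.06 and Rab39b at 3.38, while Kif16b stood at 2.89. Kif5c remained the lowest per length in all 3 arms, at 0.426 with LNA1 and 0.634 with LNA2.

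The members nearest to the fold limit were Kif16b with LNA1 (-0.53), Dennd2d with LNA1 (0.63) and Dync2i1 with LNA2 (0.64). Nearest to the limit on adjusted p, which served to choose the genes and is no test of them, were Dennd2d and Dmkn with LNA1. Just outside were Adhfe1, with log2 fold changes of -0.55 and -0.49, and Gm42549, with 2.04 and 1.98 and an adjusted p just above the limit (0.0508 in edgeR). The other 12 genes called with both LNAs were all higher, as were 7 of the 8. Cend1, a neuronal differentiation gene, had the largest fitted values (2.81 and 3.24) from 0.162 ± 0.133 CPM with ctrlA (SD, n = 6), below the floor. Myo1g (2.21 and 1.94), Gm42547 (1.88 and 1.72) and Ckb, the brain-type creatine kinase (1.81 and 1.47), followed. Ccdc162, Gm18562, Gsap, Pdgfra, Ero1b, Slc13a4, Cyp4f16 and Rom1 lay between 0.60 and 1.36 with LNA1 and between 0.71 and 1.26 with LNA2. Pdgfra, the receptor that marks adipocyte precursors, stood at 7.41 ± 0.488 CPM for ctrlA, 13.7 ± 1.97 for LNA1 and 12.1 ± 2.17 for LNA2 (SD, n = 6).

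The effect of isoproterenol was not used in the choice of the genes and could be tested. Dennd2d was the only one of the 8 that was called, in a comparison in which 479 of 14949 genes (3.2%) were called, 302 higher (2.02%) and 177 lower (1.18%). Its mean was 12.9 ± 3.56 CPM in unstimulated and 8.49 ± 2.9 CPM in stimulated cells (SD, n = 9). The log2 fold change was -0.62 (SE 0.09) with an adjusted p of 0.000665 in edgeR, and the level was lower in 9 of 9 pairs of the same LNA and replicate number. Stimulated and unstimulated libraries of Dennd2d did not overlap within any of the 3 LNAs, which held for 169 genes that were lower (1.13%). The overlapping 2010016I18Rik had -0.57 with isoproterenol (SE 0.26, adjusted p 0.298) and Cept1 -0.19 (adjusted p 0.756), and the part of reads from the overlap in the value of Dennd2d was not tested. The call was lost without the 6 libraries of replicate 3 (adjusted p 0.0887) or of replicate 4 (0.101), with a log2 value of -0.60 in both. Within the single arms, the log2 fold change was -0.69 with ctrlA (adjusted p 0.0845 in edgeR), -0.68 with LNA1 (0.0713) and -0.50 with LNA2 (0.34), where 0.488%, 0.702% and 0.395% of all genes were called. With the replicate number as a block these became -0.70 (adjusted p 0.00323), -0.68 (0.00207) and -0.51 (0.014), all past both limits, which 4.03%, 5.04% and 4.25% of all genes also passed in the respective arm.

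For Kif5c the call with isoproterenol depended on the model, and for Dync2i1 the difference lay under the fold limit. Kif5c averaged 2.53 ± 1.76 CPM in unstimulated and 3.31 ± 1.41 CPM in stimulated cells (SD, n = 9), with 8 of 9 pairs higher, and its log2 fold change was 0.56 (SE 0.18, adjusted p 0.1 in edgeR). With the replicate block it was 0.59 (SE 0.17, adjusted p 0.0147), which is a call, in a fit that called 7.0% of all genes. It was 0.68 (adjusted p 0.0337) without unstimulated LNA2 replicate 4 and 0.32 (adjusted p 0.313) without the 6 libraries of replicate 2. For Dync2i1 it was 0.33 (SE 0.08, adjusted p 0.0305), with 9 of 9 pairs higher, which is below the fold limit of 0.5, and the adjusted p ranged from 0.0146 to 0.0736 when single libraries were left out.

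The remaining 5 genes did not pass the test with isoproterenol. The log2 fold change was 0.25 (SE 0.11, adjusted p 0.32 in edgeR) for Calr3, 0.20 (SE 0.19, adjusted p 0.767) for Rab39b, -0.02 (SE 0.06, adjusted p 0.968) for Kif16b, -0.31 (SE 0.21, adjusted p 0.608) for Chil1 and -0.34 (SE 0.22, adjusted p 0.572) for Dmkn. The smallest SE was that of Kif16b, whose level was 33.5 ± 7.6 CPM in unstimulated and 33.3 ± 8.8 CPM in stimulated cells (SD, n = 9 each), a spread that holds the difference between the arms. Over all 8 genes the median was 0.09, against 0.0 over all genes.

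**Figure D4:**
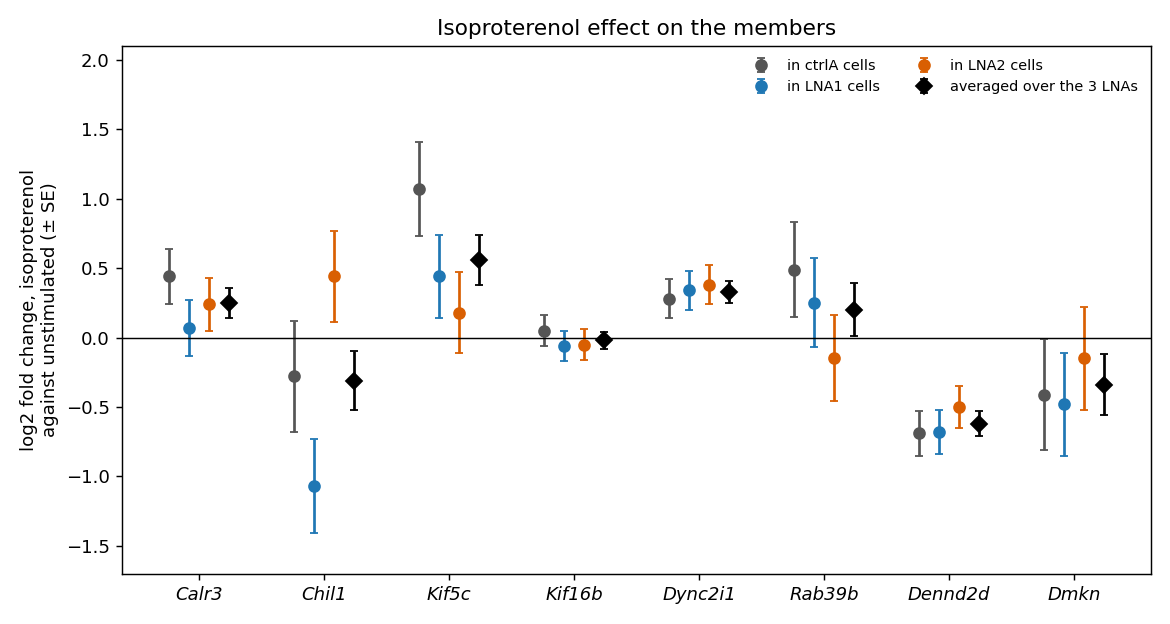
Log2 fold change of isoproterenol against unstimulated cells for the 8 genes within ctrlA, LNA1 and LNA2 (circles) and averaged over the 3 (black diamonds), with the standard error as bars. Dennd2d lies below 0 in every arm (-0.69, -0.68 and -0.50), Dync2i1 above 0 in every arm, and Chil1 at -1.07 with LNA1 and 0.44 with LNA2.

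Whether the shift with an LNA differed between unstimulated and stimulated cells was tested as an interaction. No member passed for LNA1 or for LNA2 (adjusted p 1 for all 8 in edgeR, and 0 of 8 at an unadjusted p under 0.05 in each), and over all genes 0 were called (0.0%), 105 and 116 of them having an unadjusted p below that limit. DESeq2 called 0 and 2 genes, none of them a member, and the replicate block 0 and 0. With the replicate block 393 and 807 of all genes had an unadjusted p under 0.05 in edgeR. The main model leaves the difference between replicate numbers in its error, which makes its interaction p-values conservative. A missing call therefore does not show that the shifts were equal in both states. The largest interaction of a member was that of Kif5c with LNA2, -0.89 (SE 0.45, unadjusted p 0.0637), whose fold was smaller in stimulated cells. For Chil1 the isoproterenol effect was -1.07 (SE 0.34, adjusted p 0.278) with LNA1, lower in 3 of 3 pairs, and 0.44 (SE 0.33, adjusted p 1) with LNA2, higher in 2 of 3 pairs. The difference between these effects, chosen after the values of Chil1 had been seen, was 1.51 (SE 0.48, unadjusted p 0.00641, adjusted p 1).

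The 8 genes were set beside other genes of their pathways, 116 tested genes in 7 lists. With LNA1 0 of these were called in edgeR, with 8 at an unadjusted p under 0.05, as 899 of all 14949 genes had. DESeq2 called 2, in a fit that called 118 of all genes higher and 15 lower. The replicate block called 4 (where 2.43% of all genes were called). With LNA2 4 were called, all higher, with 20 at an unadjusted p under 0.05, as 1587 of all genes had. DESeq2 called 9, in a fit that called 235 of all genes higher and 103 lower. The replicate block gave 12 (where 5.53% of all genes were called). The share of all genes called with LNA2 in the main model was 1.42%. The kinesins and light chains, 24 tested beside Kif5c and Kif16b, had a median log2 fold change of -0.01 with LNA1 and 0.06 with LNA2. None of the 24 was called with either LNA, with 0 and 3 at an unadjusted p under 0.05, and DESeq2 called none with LNA1 and Kif1a and Kif5a with LNA2. Kif5b, the widely expressed kinesin-1 heavy chain, had 0.00 and -0.06 with LNA1 and LNA2. The neuronal heavy chain Kif5a had 0.45 (adjusted p 1) and 1.26 (adjusted p 0.0612), and with the replicate block LNA2 raised Kif5a by 1.19 (adjusted p 0.00353). The axonal kinesin Kif1a was at -1.47 with LNA2 (adjusted p 0.0616, and 0.00956 with the replicate block). With isoproterenol Kif1a was called, rising by 1.92 (adjusted p 0.000802 in edgeR) between means of 0.423 ± 0.325 and 1.38 ± 0.571 CPM (SD, n = 9), and with the replicate block Kif21b was called as well (0.53, adjusted p 0.0423).

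Of 26 tested genes of dynein-2 and intraflagellar transport, the traffic along the cilium, 2 rose with LNA2 and 0 fell. Wdr35, a subunit of the retrograde transport complex IFT-A, rose by 0.90 (adjusted p 0.00657 in edgeR) between means of 12.5 ± 2.45 CPM and 23.5 ± 2.9 CPM (SD, n = 6). Ift57, a subunit of the anterograde complex IFT-B, rose from 14.3 ± 1.66 to 22.3 ± 2.24 CPM (0.64, adjusted p 0.00604). Both calls were lost without the libraries of replicate 3 and without those of replicate 4, and that of Ift57 also without the low-count filter. In all 8 of the 26 had an unadjusted p under 0.05 with LNA2, as 1587 of all 14949 genes had. DESeq2 called 5 (Ift122, Ift22, Ift57, Ttc26 and Wdr35), in a fit that called 235 of all genes higher and 103 lower. With the replicate block 6 of the 26 rose with LNA2, Dync2li1 (0.57), Ift122 (0.53), Ift22 (0.58) and Ttc26 (0.62) besides these, and Wdr35 rose with LNA1 as well (0.62, adjusted p 0.00028). Without the block Wdr35 had 0.62 with LNA1 (adjusted p 0.125). No gene of the list was called with LNA1 in the main model, with 4 at an unadjusted p under 0.05, and DESeq2 called Wdr35 there. Of the other dynein-2 subunits, Dync2li1, the light intermediate chain, had 0.32 and 0.55 with LNA1 and LNA2 (adjusted p 1 and 0.298 without the block). The heavy chain Dync2h1 had 0.19 and -0.23 (adjusted p 0.904 and 0.377), and Dync2i2, the partner intermediate chain, had 0.02 and 0.07 (adjusted p 1 and 0.98). The median of the list was 0.01 with LNA1 and 0.14 with LNA2.

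The 21 tested genes of DENN domain proteins and Rab GTPases had medians of -0.02 and -0.04 with LNA1 and LNA2, and none was called by edgeR or DESeq2, with 0 and 2 at an unadjusted p under 0.05. Rab9, a GTPase that DENND2 proteins act on, had -0.01 and -0.05. The 14 chaperones and lectins of the endoplasmic reticulum had medians of -0.08 and -0.16, and none was called by either tool, with 0 and 1 at an unadjusted p under 0.05. Calr, the main calreticulin, had -0.09 and -0.08 (adjusted p 1 and 0.934 in edgeR) where Calr3 had 1.08 and 1.80. In the chitinase family 3 genes were tested and none was called by either tool, with 0 at an unadjusted p under 0.05 for each LNA. Of 3 tested genes listed beside Dmkn, 2 rose with LNA2. These were Sbsn (suprabasin, from 6.87 ± 1.79 to 13.3 ± 4.41 CPM, log2 fold change 0.97) and Krt8 (a keratin of simple epithelia, from 0.455 ± 0.303 to 1.22 ± 0.339 CPM, 1.46), both with an adjusted p of 0.0452 in edgeR (SD, n = 6 each). With LNA1 Krt8 had 1.58 (adjusted p 0.0671) and was called by DESeq2 and with the replicate block (1.61, adjusted p 0.00828), while Sbsn had 0.13 (adjusted p 1). With isoproterenol Krt8 and Sbsn had 0.96 and 0.63 (adjusted p 0.0662 and 0.0743), and both were called by DESeq2 and with the replicate block (0.95 and 0.63). The calls with LNA2 were close to the limit, since leaving out 1 library ended that of Sbsn in 13 of 18 fits (adjusted p up to 0.151, without unstimulated LNA2 replicate 4) and that of Krt8 in 16 of 18 (up to 0.137, without stimulated ctrlA replicate 3).

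**Figure D5:**
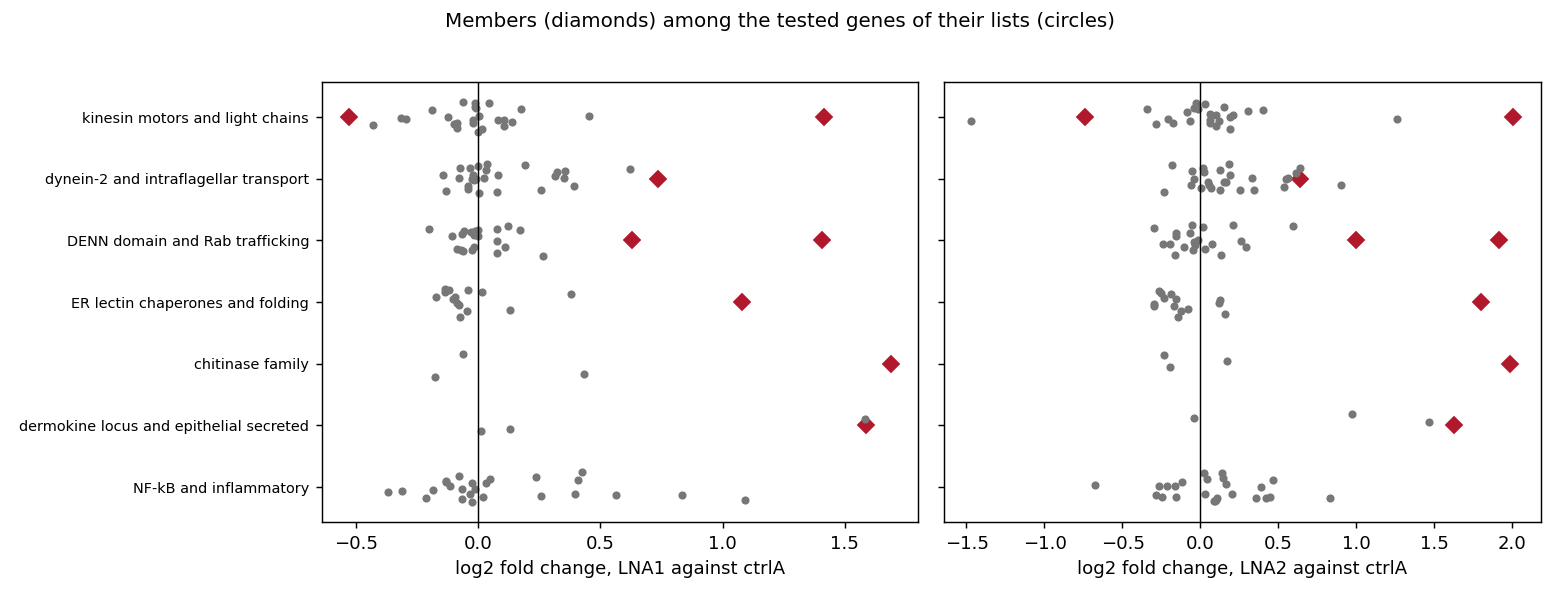
Log2 fold change of LNA1 (left) and LNA2 (right) against ctrlA, averaged over both states, for the tested genes of 7 lists (circles, spread vertically at random) with the 8 genes as diamonds. Most listed genes lie around 0, and the 8 genes, chosen for their shift, lie towards the edges of their lists.

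Among 25 NF-κB and inflammatory genes the medians were -0.03 with LNA1 and 0.09 with LNA2, and none was called with either LNA by edgeR or DESeq2, with 3 and 4 at an unadjusted p under 0.05. With the replicate block Lcn2 (0.61) and Saa3 (1.19) rose with LNA1, and with LNA2 Ccl2 rose (0.86) and Vcam1 fell by 0.73. With isoproterenol Traf1, an adaptor of TNF receptors, rose by 1.30 (adjusted p 0.00156 in edgeR) between means of 1.39 ± 0.514 CPM and 3.41 ± 0.566 CPM (SD, n = 9). It was the single gene of the 25 called in that model, with 9 at an unadjusted p under 0.05, as 2242 of all 14949 genes had. DESeq2 also called Il6 and Hp, in a fit that called 389 of all genes higher and 240 lower. With the replicate block 8 were called with isoproterenol, where 7.0% of all genes were. The cytokines and chemokines Il6 (1.48), Cxcl5 (1.29), Cxcl1 (0.69) and Ccl7 (0.65) rose, as did Traf1 and Nfkbie (0.54), and the acute phase protein Hp and the complement component C3 fell by 0.89 and 0.57.

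Several of the 8 genes are known from other cell types, and markers of these were measured in the same libraries. Of 5 neuronal markers 1 was tested, of 4 keratinocyte markers 1, with Krt1 at 0 counts in all libraries, of 4 endothelial markers 1 and of 6 macrophage markers 2. In every library 3 neuronal, 3 keratinocyte, 3 endothelial and 4 macrophage markers stayed below 1 CPM, so each sum rests on few genes. The summed neuronal markers ranged from 5.08 to 10.7 CPM for ctrlA, 3.56 to 11.8 for LNA1 and 4.54 to 12.1 for LNA2, and the keratinocyte markers from 4.19 to 8.28, 4.44 to 7.28 and 4.07 to 8.59 CPM. The ranges of the arms overlapped for both, and the part of such cells in the levels of Kif5c, Rab39b and Dmkn was not tested. Endothelial markers summed to 2.35 to 3.74, 1.67 to 4.35 and 1.77 to 3.55 CPM. The macrophage markers, which bear on Chil1, ranged from 8.28 to 24.8 CPM for ctrlA, 11.9 to 30.3 for LNA1 and 14.1 to 44.6 for LNA2. Most of this sum was Cd68, which alone averaged 13.7 ± 5.34 CPM in unstimulated and 25.3 ± 8.53 CPM in stimulated cells (SD, n = 9). Cd68 had 0.88 with LNA2 (adjusted p 0.057 in edgeR), where DESeq2 called it, and rose with isoproterenol (0.90, adjusted p 0.00618 in edgeR). With the replicate block Cd68 and Csf1r rose with LNA2 (0.88 and 1.71). The part of such cells in the level of Chil1 was not tested. Ly6a, a precursor marker, rose with isoproterenol (1.58, adjusted p 0.0415), a call lost in 11 of 18 fits that left out 1 library. Of the 5 precursor markers tested Pdgfra was the one called with the LNAs in the main model (0.89, adjusted p 0.00743 with LNA1, and 0.71, adjusted p 0.0121 with LNA2). With the replicate block and LNA2, Ly6a rose (0.66) and the collagen Col3a1 fell by 0.62. Precursor markers summed to 251 to 524, 227 to 517 and 223 to 490 CPM, adipocyte markers to 17000 to 29100, 15100 to 25600 and 15100 to 24900 CPM, and brown adipocyte markers to 339 to 548, 255 to 445 and 263 to 422 CPM. The 6 brown adipocyte markers tested had a median log2 fold change of -0.24 with LNA1 and -0.34 with LNA2, none was called by edgeR or DESeq2, and 1 and 3 had an unadjusted p under 0.05. The part of this difference in the levels of the 8 genes was not tested.

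Promoters were read for all 8 genes from RefSeq on GRCm38.p6 (13 windows of 250 bases before to 50 bases after a start), Dync2i1 under its older symbol Wdr60. The letters TGACGTCA, a full cyclic AMP response element, occurred in 1 of the 13 windows, that of Kif5c, and in 1.8% of 32544 promoters. Its core TGACG on either strand, which the full element also holds, was found for Kif5c, Calr3 and Dmkn (3 of 13 windows) and in 20.9% of promoters. A κB motif was found for Chil1 and in 1 window of Dmkn, and in 4.53% of promoters. TATAAA was found for Kif5c, Dync2i1 and Rab39b (13.6% of promoters), and CACGTG (7.17%) and the PPAR direct repeat AGGTCANAGGTCA (0.0399%) in no window of the 8 genes. Matches were counted on both strands. The GC content ranged from 35.7% for Rab39b to 73.0% for Kif16b around a median of 53.0% over all promoters. The Kif5c window is shown as the 1 window of the 13 with TGACGTCA, in capitals 26 bases before the start. Kif5c was called with isoproterenol in the model with the replicate block but not in the main model. Dennd2d, which the main model called, held neither TGACGTCA nor TGACG. The Chil1 window is shown as that of a gene whose κB motif, in capitals, lies 179 bases before the start.
Kif5c, chr2:49619036-49619335, plus strand: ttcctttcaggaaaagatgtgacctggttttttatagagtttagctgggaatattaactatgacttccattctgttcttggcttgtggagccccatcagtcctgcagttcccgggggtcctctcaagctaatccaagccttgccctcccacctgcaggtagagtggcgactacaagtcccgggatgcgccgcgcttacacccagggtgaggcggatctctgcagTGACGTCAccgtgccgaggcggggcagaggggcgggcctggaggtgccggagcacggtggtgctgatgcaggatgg
Chil1, chr1:134181906-134182205, plus strand: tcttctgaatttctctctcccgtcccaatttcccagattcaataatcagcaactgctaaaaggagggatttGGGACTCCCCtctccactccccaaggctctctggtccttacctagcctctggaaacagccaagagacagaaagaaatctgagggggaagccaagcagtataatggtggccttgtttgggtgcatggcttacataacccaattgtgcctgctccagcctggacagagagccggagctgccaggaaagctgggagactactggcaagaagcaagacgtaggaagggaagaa
The 7 genes that were higher with the LNAs shared none of these motifs as a group, and a match describes the letters of the window.

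The 16 protein-coding genes that flank the 8 were examined for a shared shift. Of these, 10 were tested and Sbsn, 7622 bases from Dmkn, was the one called with LNA2, at an adjusted p of 0.0452 in edgeR (above). Of all genes 1.42% were called with LNA2. With LNA1 the adjusted p was 1 for all 10 in edgeR. Of all 14949 genes, 899 and 1587 had an unadjusted p under 0.05 with LNA1 and LNA2, and of the 10 flanking genes 0 and 3. These 3 were Sbsn, 1700030K09Rik and Pls3, which flanks Rab39b at 207423 bases (-0.81, adjusted p 0.352). The annotated start of 1700030K09Rik lies 10 bases from that of Calr3, and this gene had log2 fold changes of -0.06 and 0.26 with LNA1 and LNA2 (adjusted p 1 and 0.348), where Calr3 had 1.08 and 1.80.

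Finally, the variation of the 8 genes over the 18 libraries was described after removal of the mean of each replicate number. Over the 21 pairs of the 7 genes that were higher, Pearson's r ranged from 0.32 (Dync2i1 and Dennd2d) to 0.93 with a median of 0.79, and Kif16b had -0.96 to -0.74 with each of the 7. These values hold the shared LNA difference that chose the genes. With the group means also removed, the median over the 21 pairs was 0.34, from -0.33 to 0.83, and Calr3 had 0.83 for Chil1, 0.71 for Dync2i1, -0.03 for Rab39b and -0.81 for Kif16b. Both genes of a pair were measured in the same libraries and so share the depth and preparation of each library. Among genes other than the 8, those most like the mean profile of the 7 were Wdr35 (r = 0.977), Cyp4f16 (0.958), Map3k12 (0.953), Ampd3 (0.94) and Apbb1 (0.935), over 18 libraries. Kif16b was the lowest of all 14949 genes (-0.978), followed by Colec12 (-0.961), a scavenger receptor with log2 fold changes of -0.37 and -0.49. In this ranking the group means were kept, so its r values hold the LNA difference that chose the 7 genes and Kif16b. The place of Kif16b was thus largely set by the choice and is no separate result.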

How the data were processed

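The authors sequenced polyadenylated RNA as paired-end reads (NEBNext Ultra II libraries, NovaSeq), trimmed the reads with cutadapt and quantified them with Salmon on Gencode M22 (GRCm38). Program versions are not given in the sources used here. The deposited values are expected counts per gene, already rounded to whole numbers, with no scaling to depth. Columns were assigned to the 18 libraries by their titles.

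Counts were filtered with filterByExpr (minimum count 10, minimum total 15), normalised by TMM and fitted in edgeR 4.0.16 (R 4.3.3) with 1 term per group. Contrasts were tested by the two-sided quasi-likelihood test with Benjamini-Hochberg adjustment over all 14949 genes. A call required an adjusted p below 0.05 and an absolute log2 fold change above 0.5, and interactions only the former. CPM are TMM-normalised, and log2 CPM used a prior count of 2. Floors cover counting error only. Within groups, 0 of 18 pairs of libraries were identical, and the chi-square statistic per degree of freedom was 4.32 to 177, so every library counted as a replicate. The scripts were tested on simulated counts. Salmon divides reads among similar transcripts, so paralogues (Kif5a, Kif5b and Kif5c, and Calr and Calr3) may carry uncertain counts, which was not measured.

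The deviations of libraries with the same replicate number from their group means were correlated in all pairs (r 0.649 to 0.722 for number 2, 0.252 to 0.505 for number 3 and 0.24 to 0.47 for number 4, 15 pairs each). The pairing by number therefore comes from the data, the labels naming no shared batch, and values with the replicate block are given where they change a call. Alternatives were the replicate block, RLE size factors, DESeq2 1.42.0, no low-count filter and leaving out single libraries or replicate sets.

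The members and lists were chosen with earlier results of these data known. Genes named were the 8, every called gene of a list, up to 4 per list and contrast, the genes called with both LNAs and the 5 genes most like the 7 higher members. Other genes, such as Kif5a, Kif5b, Calr, Rab9, Dync2h1, Colec12 and those called only with the replicate block, were named after their values were seen. Of the listed genes, Dennd2b and Ift25 were not found by symbol. LNA sequences came from the study's oligonucleotide list, transcripts and coordinates from GENCODE M21, and promoters from RefSeq (GRCm38.p6). Proteins and introns were not analysed here.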

Additional observations from a re-analysis of the deposited data

How the results depend on the processing

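All 8 genes were called with both LNAs under the replicate block, RLE size factors and DESeq2, and 6 without a low-count filter, where Kif16b and Dennd2d were lost. In these fits 132, 20, 35 and 12 genes in all were called with both LNAs, against 20 as reported, and the members were chosen on this comparison. Leaving out 1 library gave 6 to 8, Dennd2d being lost in 8 and Dmkn in 4 of 18 such fits. The count was 0 without replicate 3 and without replicate 4, fits in which 0 genes in all were called with either LNA (487 and 695, and 424 and 665, at an unadjusted p under 0.05), and 8 without replicate 2, of 77 genes in all. Leaving out 1 library moved the number of genes called with LNA1 by over 1.5 times in 8 of 18 fits, with LNA2 in 4 and with both in 9. For both, these were every ctrlA library but stimulated replicate 4, and LNA1 replicates 3 and 4 of either state, for LNA1 the same without unstimulated ctrlA replicate 2, and for LNA2 unstimulated and stimulated ctrlA replicate 3, unstimulated ctrlA replicate 4 and unstimulated LNA2 replicate 4. Of 800 alternative values of the within-state differences, 778 moved by less than the spread between replicates, 22 by more, and 0 changed sign. For isoproterenol 1 member was called, 2 with the replicate block and 0 to 2 when libraries or replicate sets were left out. The interaction called 0 members throughout. Of the 116 listed genes, 0 were called with LNA1, 4 with LNA2 and 2 with isoproterenol. The replicate block gave 4, 12 and 12, DESeq2 2, 9 and 6, and no low-count filter 0, 2 and 4. Leaving out libraries or replicate sets gave 0 to 3, 0 to 11 and 0 to 8, and the cause was not tested. Without replicate 3 and without replicate 4, the calls of Wdr35, Ift57, Sbsn, Krt8, Traf1, Pdgfra, Adipoq, Ppargc1a, Ly6a and Cd68 were lost, that of Kif1a without replicate 3 and that of Cidea without replicate 4, while Ucp1 was called in each. Without the low-count filter, the calls of Ift57, Krt8 and Pdgfra with LNA2 were lost. The replicate block changed no other call of the 8 genes than those given. The ctrlA libraries held 5 to 18 counts of Chil1, which limits its fold.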
